A study of Mus musculus with 6 samples.

Results

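The genes described here are 10 markers of Purkinje cells, the sole output neurons of the cerebellar cortex: *Pcp2*, *Calb1*, *Car8*, *Ppp1r17*, *Pcp4*, *Rora*, *Slc1a6*, *Aldoc*, *Homer3* and *Plcb4*. They were chosen by name, as genes known to mark these cells, and were found by gene identifier among the 53715 genes of an RNA-Seq table of mouse cerebellum, of which 16330 were tested. All 10 had enough counts to be tested. The table holds 6 male mice on a C57BL/6 background (C57BL/6J in the methods) that were 4 weeks old, with RNA from 1 cerebellum per mouse. The 3 mice labelled Zip8_NSKO carried 2 floxed alleles of *Slc39a8* (also called *Zip8*, the gene of a manganese and zinc transporter) together with *Synapsin I-Cre*, which deletes the gene in neurons, and are called *Slc39a8*-NSKO here. The 3 mice labelled Zip8_WT are called controls. The sources name both floxed mice without Cre and wild-type mice as controls, so the genotype of the controls is not settled. The activity of *Synapsin I-Cre* is known to vary between brain regions, and its recombination in Purkinje cells was not measured here.

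Purkinje cells receive excitation from granule cell axons (parallel fibers) and from climbing fibers, and inhibit the deep cerebellar nuclei. Parallel fibers act on them in part through a cascade in which Homer scaffolds hold the signalling proteins together, Gq proteins activate phospholipase C, and calcium leaves its stores through the IP3 receptor. Calcium buffers, regulators of G proteins and phosphatases, and a glutamate transporter shape the response, and some of these genes are expressed in stripes across the cerebellar cortex.

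Between 14431260 and 20844267 counts per mouse fell on genes, and no library repeated another, since each pair of libraries differed by 3.97 to 9.41 times the sampling noise (chi-square per degree of freedom). Reads of *Slc39a8* were few, at 99, 46 and 44 counts in the controls and 38, 40 and 41 in *Slc39a8*-NSKO mice. The genotypes did not overlap once scaled for depth, and the log2 fold change of -0.83 (SE 0.237) did not pass the test (adjusted p = 0.534, edgeR). Over all genes, 16 of 16330, or 0.098%, passed at an adjusted p below 0.05 (0.0735% lower and 0.0245% higher in *Slc39a8*-NSKO mice).

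None of the 10 markers passed the test, and none had an unadjusted p below 0.05, beside 5.39% of all genes tested (881 of 16330). By DESeq2 and limma-voom none passed either. The 3 mice of one genotype overlapped the 3 of the other for every marker. Over all genes, the genotypes did not overlap for 10.3% (5.26% lower and 5.07% higher in *Slc39a8*-NSKO mice). Among 10 genes, 0 is near this share and near the 5.39%. Of the 10 markers, 4 had a log2 fold change below 0, beside 49.5% of all genes, and the median log2 fold change of the 10 was 0.014, beside 0.0011 over all genes. Among the 1228 genes tested at or above the lowest marker's level (a mean of 163 CPM, the counts in each 1000000 of a library), 41.1% were below 0 and the median was 0.01. Of these 1228 genes, 4.07% had an unadjusted p below 0.05. The 95% intervals of the 10 markers were narrow: none of them reached below 87.6% or above 119% of the control level. In bulk RNA, fewer Purkinje cells and less of an RNA in each cell cannot be told apart. Each marker had between 2516 and 38065 counts in every mouse, and the standard errors of the log2 fold changes, from 0.054 to 0.078, stood beside a median of 0.055 for these 1228 genes.

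**Figure D1:**
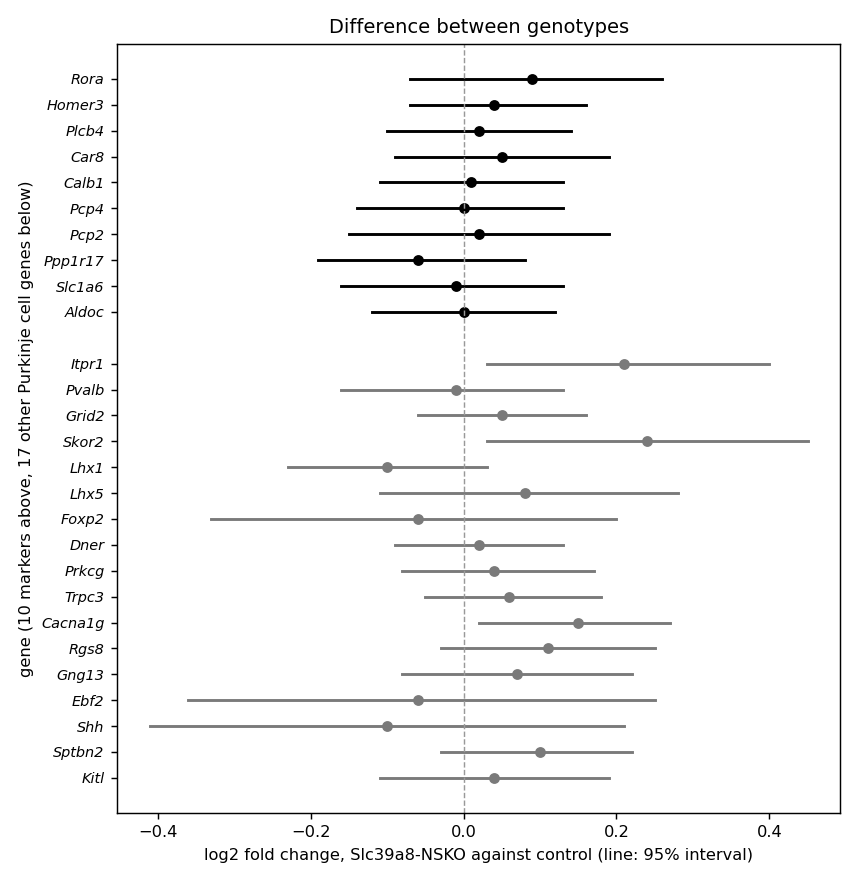
Log2 fold change of *Slc39a8*-NSKO against control mice (x axis) for the 10 markers, in black, and 17 other genes of Purkinje cells, in grey, where a point is the edgeR estimate and a line its 95% interval (3 mice per genotype). The line of every marker crosses 0, and those of *Itpr1*, *Skor2* and *Cacna1g* among the others do not.

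The promoters of 2 markers are shown because each holds AGGTCA, the letters that ROR and other nuclear receptors are known to bind, and *Rora* is itself among the markers. Both are the 250 bases before a RefSeq start site (build GRCm38.p6), for *Pcp2* the farthest upstream of the 4 whose windows were at hand and for *Pcp4* the only one, 5′ to 3′ on the strand of the gene, with these letters in capitals (read as TGACCT where it lies on the other strand). For *Pcp2* this is chr8:3625548-3625797 on the minus strand, where annotated exons of the neighbouring gene *Pet100* cover some of the bases, and for *Pcp4* it is chr16:96467356-96467605 on the plus strand.
Pcp2: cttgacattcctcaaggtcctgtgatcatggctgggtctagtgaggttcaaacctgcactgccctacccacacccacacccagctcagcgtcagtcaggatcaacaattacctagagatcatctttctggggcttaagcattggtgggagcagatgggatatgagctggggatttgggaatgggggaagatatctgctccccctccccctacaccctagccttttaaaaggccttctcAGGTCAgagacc
Pcp4: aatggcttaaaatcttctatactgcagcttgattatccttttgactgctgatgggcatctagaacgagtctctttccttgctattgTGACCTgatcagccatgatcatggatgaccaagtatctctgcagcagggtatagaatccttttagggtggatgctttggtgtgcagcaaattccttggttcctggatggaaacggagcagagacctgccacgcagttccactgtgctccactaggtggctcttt
The capitals begin 12 bases before the start site shown for *Pcp2* and 164 bases before that of *Pcp4*. In *Pcp2* the same letters lie 87 bases before the second start site, the window of the third holds none, and that of the fourth holds another 26 bases before its start. RefSeq windows of 300 bases (250 before and 50 after a start site) were at hand for 7 of the 10 markers, 12 windows in all, and AGGTCA on either strand occurs in those of *Pcp2*, *Pcp4* and *Homer3*. Counted by window, 5 of the 12 hold these letters, beside 16.3% of all 32851 windows. The windows of the first and second *Pcp2* start sites overlap and hold the same site. The cAMP-responsive element TGACGTCA, which reads the same on both strands, is in 0 of the 12 windows and in 1.79% of all windows. These matches describe the letters only.

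Levels of different markers were compared as CPM, scaled by TMM, a correction for library composition, and divided by the length of the gene's exons in kb. Over the 6 mice, *Pcp4* was highest at 779.7 ± 45.2 CPM per kb (SD, n = 6), followed by *Aldoc* at 582 ± 22.4 and *Car8* at 448 ± 29.5. *Pcp2* stood at 386 ± 33.6, *Calb1* at 222 ± 9.60, *Homer3* at 133 ± 5.51 and *Ppp1r17* at 116 ± 7.27 CPM per kb. The lowest were *Slc1a6* at 76.0 ± 4.84, *Plcb4* at 31.6 ± 1.31 and *Rora* at 23.1 ± 2.06 CPM per kb. Neighbours in this order did not overlap between mice, except *Car8* (418 to 492) and *Pcp2* (335 to 439). Only 23 of the genes tested lay above *Pcp4* on this scale, and 2141 above *Rora*. With the longest transcript as the length, the order of the 10 was the same.

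**Figure D2:**
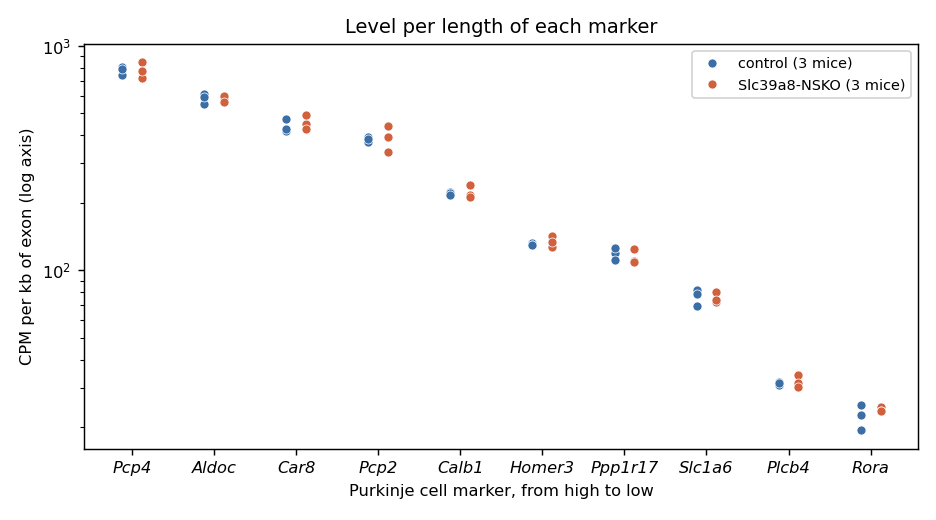
CPM per kb of exon (log axis) of each marker in the 6 mice, from the highest marker to the lowest, where a point is 1 mouse. *Car8* and *Pcp2* are the only neighbours in the order whose mice overlap.

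*Rora* encodes the nuclear receptor RORα, which Purkinje cells need to mature and survive and whose loss causes the *staggerer* phenotype. Its gene lies at chr9:68653786-69388246 on the plus strand. It measured 329, 253 and 296 CPM in the controls and 322, 307 and 307 CPM in *Slc39a8*-NSKO mice. The first and the second control mouse were the highest and the lowest of the 6, and the *Slc39a8*-NSKO mice lay close together between them. The means were 293 ± 38.2 and 312 ± 8.23 CPM (SD, n = 3 each). The log2 fold change was 0.09 (95% interval -0.07 to 0.26, adjusted p = 0.994, edgeR), with an exact two-sided permutation p = 0.5 (n = 3 each), where 3 mice against 3 allow no p below 0.1. This was the widest difference of the 10, and it moved with the first and the second control mouse in opposite directions: the log2 fold change was 0.19 without the first control mouse (adjusted p = 0.449) and 0.00 without the second. *Rora* shares 82 exon bases with *Gm15511* on the opposite strand, and its counts were whole in all 6 mice.

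*Homer3* and *Plcb4* serve the phospholipase C cascade, the first as a scaffold that binds the IP3 receptor and the second as the phospholipase C that makes IP3. *Homer3* (chr8:70282827-70294361, plus strand) measured 455, 445 and 448 CPM in the controls and 435, 489.6 and 462 CPM in *Slc39a8*-NSKO mice. The controls lay within the span of the *Slc39a8*-NSKO mice, whose first mouse was the lowest and whose second the highest. Its log2 fold change was 0.04 (95% interval -0.07 to 0.16, adjusted p = 0.994, edgeR; exact permutation p = 0.6). *Homer3* shares 874 exon bases with *Ddx49* on the opposite strand, and its counts were not whole in any of the 6 mice. Summed with *Ddx49*, a gene named after its values were seen, the log2 fold change was 0.03. *Plcb4* (chr2:135659011-136014593, plus strand) measured 285, 277 and 282 CPM in the controls and 305, 281 and 270.4 CPM in *Slc39a8*-NSKO mice. Here the first *Slc39a8*-NSKO mouse was the highest of the 6 and the third the lowest. The means of 281 ± 3.73 and 286 ± 17.8 CPM gave a log2 fold change of 0.02 (95% interval -0.10 to 0.14, adjusted p = 0.994, edgeR).

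*Car8* encodes a carbonic anhydrase relative without enzyme activity that binds the IP3 receptor and lowers its affinity for IP3. The gene (chr4:8143362-8239041, minus strand) measured 1826, 1610.4 and 1647 CPM in the controls and 1729, 1895 and 1646 CPM in *Slc39a8*-NSKO mice. The highest values were those of the second *Slc39a8*-NSKO mouse and the first control mouse, and the genotypes overlapped. The log2 fold change was 0.05 (95% interval -0.09 to 0.19, adjusted p = 0.994, edgeR; exact permutation p = 0.6). Set against *Itpr1*, the IP3 receptor it binds, *Car8* per length was 3.35 ± 0.311 times as high in controls and 2.97 ± 0.231 times in *Slc39a8*-NSKO mice (SD, n = 3 each). This ratio ran from 3.05 to 3.67 in controls and from 2.81 to 3.23 in *Slc39a8*-NSKO mice, so that it overlapped (exact permutation p = 0.2).

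*Calb1* and *Pcp4* handle calcium, as the buffer calbindin D28k and as a small regulator of calmodulin. *Calb1* (chr4:15881264-15908064, plus strand) measured 1087, 1075 and 1053 CPM in the controls and 1045, 1159.6 and 1029 CPM in *Slc39a8*-NSKO mice. The second *Slc39a8*-NSKO mouse was above all others, and the others of its genotype lay below every control. The means were 1072 ± 17.1 and 1078 ± 71.4 CPM, a log2 fold change of 0.01 (95% interval -0.11 to 0.13, adjusted p = 0.998, edgeR). *Pcp4* (chr16:96467606-96525793, plus strand) measured 763, 829.5 and 810.2 CPM in the controls and 736, 865 and 796 CPM in *Slc39a8*-NSKO mice. The lowest and the highest value were again both from *Slc39a8*-NSKO mice, the first and the second. The log2 fold change was -0.00 (95% interval -0.14 to 0.13, adjusted p = 0.998, edgeR), which is 99.8% of the control level (91.0% to 109.5%). In the annotation *Pcp4* shares 243 exon bases with an *Igsf5* gene on the same strand, and its counts were whole in all 6 mice.

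*Pcp2* and *Ppp1r17* act on G proteins and phosphatases. *Pcp2* encodes a GoLoco protein that binds Gi and Go subunits and is found almost only in Purkinje cells and retinal bipolar cells. It lies at chr8:3623371-3625545 on the minus strand and measured 682, 714 and 704 CPM in the controls and 612, 803 and 715 CPM in *Slc39a8*-NSKO mice. The *Slc39a8*-NSKO mice held both the lowest and the highest value, with a coefficient of variation of 13.4% against 2.37% in the controls. The means were 700.0 ± 16.6 and 709.9 ± 95.4 CPM, and the log2 fold change was 0.02 (95% interval -0.15 to 0.19, adjusted p = 0.995, edgeR; exact permutation p = 0.8). *Pcp2* shares 941 exon bases with *Pet100* on the opposite strand and its counts were not whole in any mouse; summed with *Pet100*, also named after its values were seen, the log2 fold change was again 0.02. *Ppp1r17* (chr6:56017497-56032689, plus strand) encodes G-substrate, a target of the cGMP-dependent protein kinase that inhibits protein phosphatases when phosphorylated. It measured 209.6, 219.8 and 196 CPM in the controls and 194, 217 and 191 CPM in *Slc39a8*-NSKO mice. The *Slc39a8*-NSKO mice held the 2 lowest values, and the genotypes overlapped. Its log2 fold change of -0.06 (95% interval -0.19 to 0.08, adjusted p = 0.994, edgeR) was the lowest of the 10, at 96.3% of the control level (87.6% to 106%).

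*Slc1a6* and *Aldoc* are high in the stripes of Purkinje cells called zebrin-positive, while *Plcb4* is known to mark the stripes between them. *Slc1a6* encodes the glutamate transporter EAAT4 and lies at chr10:78780496-78814765 on the plus strand. It measured 149, 175 and 169.6 CPM in the controls and 156, 172 and 159 CPM in *Slc39a8*-NSKO mice. All 3 *Slc39a8*-NSKO mice lay within the span of the controls, and the log2 fold change was -0.01 (95% interval -0.16 to 0.13, adjusted p = 0.997, edgeR). *Aldoc* (chr11:78322968-78327781, plus strand) encodes aldolase C, the antigen zebrin II, which astrocytes also express. It measured 1789, 1985 and 1922 CPM in the controls and 1902, 1954 and 1838 CPM in *Slc39a8*-NSKO mice. Again the controls held both ends of the range, and the means of 1899 ± 99.7 and 1898 ± 58.3 CPM gave a log2 fold change of 0.00 (95% interval -0.12 to 0.12, adjusted p = 1.0, edgeR). The balance between the 2 kinds of stripe was compared as *Plcb4* to *Aldoc* per length, which was 0.054 ± 0.00357 in controls and 0.0547 ± 0.0032 in *Slc39a8*-NSKO mice (SD, n = 3 each; exact permutation p = 0.7). *Slc1a6* to *Aldoc*, 2 genes of the same stripes, was 0.131 ± 0.0045 and 0.130 ± 0.00482 (exact permutation p = 0.6). Both ratios overlapped between genotypes, and no shift between stripes was detectable with 3 mice against 3.

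**Figure D3:**
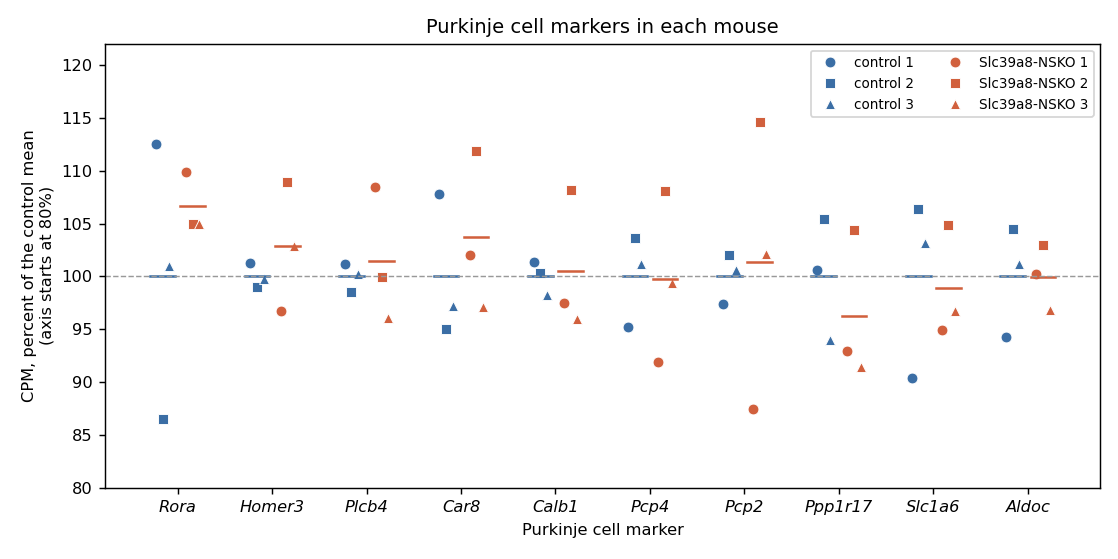
CPM of each marker in each mouse as a percent of the mean of the 3 control mice (y axis, starting at 80%), where a symbol is 1 mouse and a short line the mean of a genotype. The second *Slc39a8*-NSKO mouse (orange squares) is the highest of the 6 for 5 of the 10 markers.

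Read across markers, 1 mouse stood highest. In the second *Slc39a8*-NSKO mouse 9 of the 10 markers were above their own mean over the 6 mice, with a median of 107% of the control mean and up to 115% for *Pcp2*. The other 5 mice had 3 to 6 markers above that mean and medians from 97.0% to 101%. Among the 1228 genes at these levels, 47.0% were above their own mean in the second *Slc39a8*-NSKO mouse. Summed over the 10, the markers made 7527 to 7585 CPM in the controls and 7436, 8145 and 7413 CPM in *Slc39a8*-NSKO mice. Of 17 other genes of Purkinje cells, 12 were above their own mean in that mouse, with a median of 106% of the control mean, the highest of the 6 mice, followed by 104% in the third *Slc39a8*-NSKO mouse. Of 18 partners in the markers' pathways, 15 were above their mean there, and 14 in the first *Slc39a8*-NSKO mouse. Without the second *Slc39a8*-NSKO mouse, 8 of the 10 log2 fold changes were below 0, with a median of -0.034, and none passed the test. The coefficient of variation was higher in *Slc39a8*-NSKO mice for 7 of the 10 markers, beside 51.8% of the 1228 genes. The summed markers of choroid plexus were also highest in that mouse, at 1558 CPM against 777 to 1116 CPM in the other 5, and their part in the marker values was not tested.

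**Figure D4:**
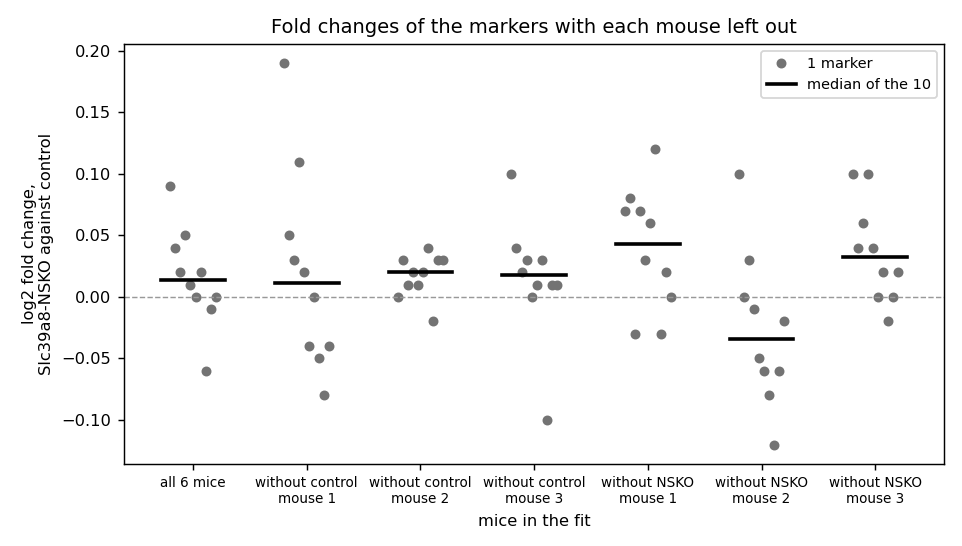
Log2 fold change of *Slc39a8*-NSKO against control mice (y axis) for the 10 markers (grey points) and their median (black line), with all 6 mice and with 1 of them left out. The median is below 0 only without the second *Slc39a8*-NSKO mouse, at -0.034.

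The other genes of Purkinje cells that were examined, 17 in all, were tested in the same fit, and none passed. Of these, 5 had a log2 fold change below 0, beside 49.5% of all genes, and the median was 0.048. At an unadjusted p below 0.05 stood 3 of the 17 (beside 5.39% of all genes), all of them higher in *Slc39a8*-NSKO mice (2.25% of all genes). *Itpr1*, the IP3 receptor, measured 2845, 2086 and 2360 CPM in the controls and 2924, 2787 and 2735 CPM in *Slc39a8*-NSKO mice, with the first control mouse inside the span of the *Slc39a8*-NSKO mice (log2 fold change 0.21, 95% interval 0.03 to 0.40, adjusted p = 0.885, edgeR). *Cacna1g*, a T-type calcium channel, measured 349, 307 and 338 CPM in the controls and 355, 368 and 380 CPM in *Slc39a8*-NSKO mice, without overlap (log2 fold change 0.15, 95% interval 0.02 to 0.27, adjusted p = 0.867, edgeR). *Skor2*, a transcriptional corepressor of the Purkinje lineage, did not overlap either, at 11.8 to 12.5 CPM in the controls and 13.7 to 14.6 CPM in *Slc39a8*-NSKO mice (adjusted p = 0.877, edgeR). One gene did not overlap in the other direction, the lineage factor *Lhx1*, at 55.6 to 59.7 CPM in the controls and 53.1 to 54.8 CPM in *Slc39a8*-NSKO mice (adjusted p = 0.983, edgeR).

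Partners of the markers in the phospholipase C, cGMP, calmodulin and Gi/Go pathways numbered 18, and none passed the test. Of the 18, 1 had a log2 fold change below 0 (*Calm2*, a calmodulin gene, at -0.03), beside 49.5% of all genes, and the median was 0.062. *Gna11*, a Gq family subunit, and *Gnao1*, the Go subunit, were above the controls in all 3 *Slc39a8*-NSKO mice, by log2 fold changes of 0.06 and 0.02.

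Markers of the other cells of the sample were read beside these values. Granule cells, which form the parallel fibers, were represented by 9 genes with a summed level of 5686 to 5950.2 CPM in controls and 5665 to 6125 CPM in *Slc39a8*-NSKO mice, and none passed the test. *Pcp2* per length was 1.78 ± 0.0797 times the granule cell receptor gene *Gabra6* in controls and 1.80 ± 0.348 times in *Slc39a8*-NSKO mice (SD, n = 3 each). Bergmann glia and astrocytes, the cells around Purkinje cells that also express *Aldoc*, had summed levels that did not overlap. The sums were 1977 to 2286 CPM in controls and 2351 to 2394 CPM in *Slc39a8*-NSKO mice. *Slc1a3* made 1088 of a mean sum of 2149 CPM in controls, and its own genotypes overlapped. Taken singly, 3 of the 7 genes did not overlap, all higher in *Slc39a8*-NSKO mice, beside 5.07% of all genes. At an unadjusted p below 0.05 (edgeR) stood 3 of the 7, all higher, beside 2.25% of all genes. None of the 7 passed (lowest p for *Gfap*, log2 fold change 0.40, adjusted p = 0.301, edgeR). The summed microglia markers did not overlap either, at 117 to 131 CPM in controls and 138 to 139 CPM in *Slc39a8*-NSKO mice. Of these 7 genes, 0 passed and 2 did not overlap when taken singly, both higher, beside 5.07% of all genes. Oligodendrocyte markers, 7 genes, summed to 8341 to 9518 CPM in controls and 7756 to 9367 CPM in *Slc39a8*-NSKO mice, and none passed. All 7 had a log2 fold change below 0, beside 49.5% of all genes. They moved together between mice: 0 of the 7 were above their own mean over the 6 mice in the first and second *Slc39a8*-NSKO mouse, and 7 in the third. The 5 interneuron genes summed to 291 to 312 CPM and 296 to 341 CPM, and 1 of them fell, *Nxph1* (log2 fold change -0.92, SE 0.122, adjusted p = 0.00621, edgeR). Cardiac muscle genes summed to 2.52 ± 0.532 CPM in controls and 13.1 ± 1.15 CPM in *Slc39a8*-NSKO mice (SD, n = 3 each) without overlap, and 3 of the 5 tested rose (*Myh6*, *Actc1* and *Tnnt2*). The part of these other cells in the marker values was not tested.

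**Figure D5:**
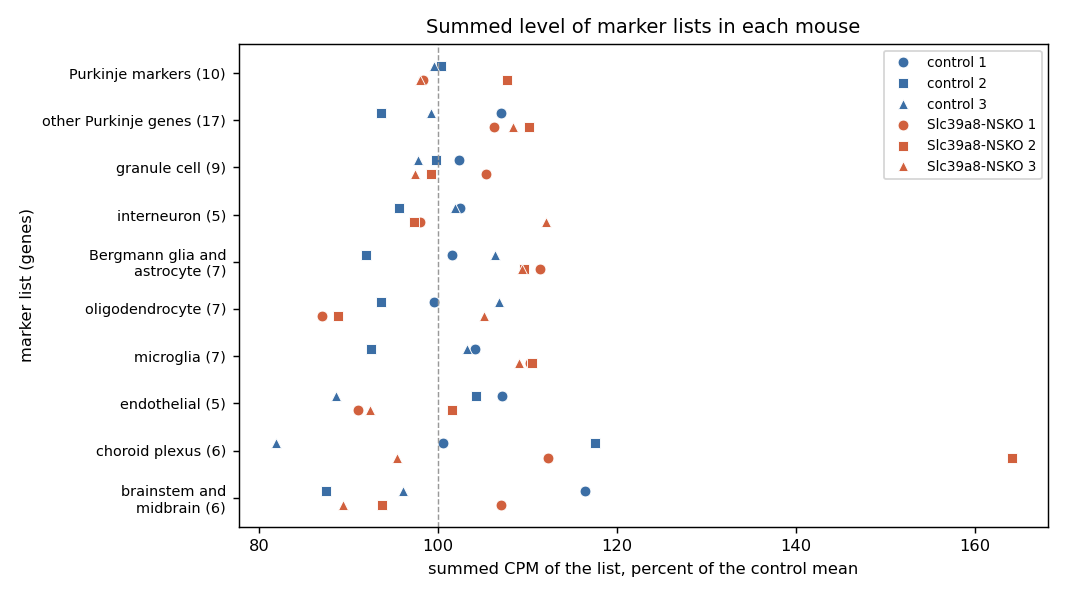
Summed CPM of each marker list in each mouse as a percent of the mean of the 3 control mice (x axis), where a symbol is 1 mouse and the number of genes stands in brackets. Purkinje markers and granule cell markers overlap between genotypes, and markers of Bergmann glia and of microglia do not.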

How the data were processed

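Cerebellar RNA of 3 control and 3 *Slc39a8*-NSKO mice was sequenced as oligo-dT cDNA with paired-end reads. The submitters' processing notes name STAR, RSEM, DESeq2 and build mm10, and tool versions are not given in the sources used here. The kit is called directional in the labels, but the strand setting of the counting is not given. The authors deposited expected counts for each gene, without normalization. The methods speak of 3 mice per genotype and a figure legend of technical triplicates; if the samples were not separate mice, the p-values measure technical spread. Spike-ins (0 to 5 counts per mouse) were left out. Counts were rounded and tested in R 4.3.3 with the quasi-likelihood test of edgeR 4.0.16 (TMM, filterByExpr), Benjamini-Hochberg adjusted over 16330 genes, with a threshold of 0.05. Log2 CPM for the exact permutation tests used a prior count of 2. Positions and exon lengths are from GENCODE M21 (GRCm38), promoters from RefSeq. The scripts were tested on simulated data. The 10 markers and the other lists were chosen with earlier results of these data known. Named are the markers, *Slc39a8*, the genes of 3 related lists (other Purkinje cell genes, partners, paralogs) and, of other lists, the gene with the lowest p and those that passed. Alternatives were DESeq2 1.42.0, limma-voom (limma 3.58.1), RLE, library size alone, other filters, counts not rounded, a replicate block, a threshold of 0.1 and each mouse left out. Summing *Pcp2* and *Homer3* with overlapping genes was added after seeing the data. Single values of some genes in these lists are not reported here.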

Additional observations from a re-analysis of the deposited data

How the results depend on the processing

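None of the 10 markers passed the test under any alternative run, including DESeq2, limma-voom and each mouse left out. Over 142 values of single markers under these alternatives, adjusted p ran from 0.449 to 1.0 and log2 fold changes from -0.12 to 0.19, with 28 changes of sign. Of these 28, *Aldoc* held 11 and *Pcp4* 6, both with a log2 fold change of 0.00 in the main fit. *Slc1a6* held 4, and each other marker from 0 (*Ppp1r17*) to 2 (*Calb1*). The number of markers with a log2 fold change below 0 was 4 in the main fit and with RLE. It was 3 with DESeq2, limma-voom, a filter of at least 10 counts in every sample, counts not rounded or the replicate block. With library size alone or with no filter it was 2. It ran from 1 to 8 with a mouse left out (8 without the second *Slc39a8*-NSKO mouse). Their median of 0.014 on the log2 scale became 0.020 with no filter, and ran from -0.034 (without the second *Slc39a8*-NSKO mouse) to 0.043 (without the first) with a mouse left out. From 0 to 1 markers had an unadjusted p below 0.05 with a mouse left out, the 1 being *Rora* without the first control mouse. The cause of these shifts was not tested.

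With the replicate number as a block, 0 markers passed, 0 had an unadjusted p below 0.05, the median log2 fold change was 0.009 and 3 were below 0. The labels do not say that a number marks a shared litter or day. The deviations of same-numbered mice correlated at 0.142, 0.116 and 0.010. The first and the second control mouse correlated best with the *Slc39a8*-NSKO mouse of their own number. The third correlated best with the first *Slc39a8*-NSKO mouse (0.036). With 3 mice per genotype these values cannot decide whether same-numbered mice shared more than a number. With 3 mice per genotype, differences within the 95% intervals of each marker were not detectable.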

Other observations

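Relatives of the markers by sequence or family, 19 genes in all, were tested in the same fit, and none passed. Of these, 8 had a log2 fold change below 0, beside 49.5% of all genes, and the median was 0.033. *Calb2*, calretinin of granule and unipolar brush cells, was lower in every *Slc39a8*-NSKO mouse (374 to 396 CPM) than in any control (398 to 427 CPM), by a log2 fold change of -0.07 (adjusted p = 0.994, edgeR). It was the only 1 of the 19 without overlap, which is near the 5.26% of all genes that were lower without overlap. Per length, *Homer3* was 34.6 ± 5.88 times *Homer1* in controls and 33.1 ± 5.89 times in *Slc39a8*-NSKO mice, *Aldoc* was 1.58 ± 0.0348 and 1.55 ± 0.0504 times *Aldoa*, and *Plcb4* was 3.49 ± 0.198 and 3.33 ± 0.0924 times *Plcb3* (SD, n = 3 each), and all 3 ratios overlapped between genotypes.

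Choroid plexus markers, 6 genes, summed to 777 to 1116 CPM in controls and 907, 1067 and 1558 CPM in *Slc39a8*-NSKO mice, with 1 gene making most of each sum. None passed (lowest p for *Folr1*, log2 fold change 0.96, adjusted p = 0.228, edgeR). At an unadjusted p below 0.05 (edgeR) stood 3 of the 6, all higher in *Slc39a8*-NSKO mice, beside 2.25% of all genes. The genotypes did not overlap for 1 of the 6, *Folr1*, beside 5.07% of all genes that were higher. Endothelial markers, 5 genes, had summed levels of 123 to 148 CPM and 126 to 141 CPM, and 0 passed. All 5 had a log2 fold change below 0, beside 49.5% of all genes. Markers of brainstem and midbrain, of which 3 of 6 were tested, summed to 30.7 to 40.9 CPM and 31.4 to 37.6 CPM, and 0 passed. The 3 tested were all below 0 as well.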
